A study of Mus musculus with 6 samples.

Results

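The 10 genes described here are the 3 TGF-β ligands (Tgfb1, Tgfb2 and Tgfb3), the 3 TGF-β receptors (Tgfbr1, Tgfbr2 and Tgfbr3), the receptor-activated SMADs of the TGF-β arm (Smad2 and Smad3), the common partner Smad4 and the inhibitory Smad7. They were chosen by name, by a rule that uses no measured value but was written with earlier results of these data known, and all 10 were among the 13730 genes of the deposited table and among the 10902 genes that passed the filter on low counts. RNA was measured in 6 C0321 tumors, 3 from control mice (Control) and 3 from mice given sulindac sulfide (SS), a nonsteroidal anti-inflammatory drug, at 60 mg/kg by mouth daily for 14 days. All mice were female FVB animals aged 6 to 10 weeks when C0321 cells (1000000 per mouse) were injected into the mammary fat pad. C0321 is a mesenchymal, claudin-low clone of triple-negative breast cancer that came from a mouse with a conditional Lunatic Fringe (Lfng) knockout, so that tumors of both groups carry this deletion while the host tissue does not. One clone in immune-competent hosts was therefore sampled, and each library held tumor cells together with the host's stroma and blood cells. The labels of the samples give the drug as a sulfate and the series text gives the control as saline, whereas the study's methods name sulindac sulfide and vehicle.

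TGF-β ligands are secreted in a latent form and, once freed, bind the type II receptor Tgfbr2, which phosphorylates the type I receptor Tgfbr1. Tgfbr1 then phosphorylates Smad2 and Smad3, which enter the nucleus with Smad4 and act on target genes, among them Smad7, which feeds back on the receptors. In breast tumors the pathway restrains growth of epithelial cells, and it is also known for driving mesenchymal traits, matrix deposition and suppression of T cells.

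Both Tgfbr1 and Tgfbr2 were listed with transcripts that differ in their coding sequence, and these stretches are shown because the deposited counts were divided between the forms. Sequences are from the GENCODE M21 transcripts of GRCm38 and run 5′ to 3′ on the coding strand, with the coding bases found in only the longer form in capitals. In Tgfbr2 the longer transcript (NM_009371) holds an additional exon 2 of 75 bases, or 25 codons, at chr9:116158271-116158345 on the minus strand, in the part of the gene that encodes the extracellular region. The shorter transcript (NM_029575) joins the neighboring exons directly.
Tgfbr2 with the exon: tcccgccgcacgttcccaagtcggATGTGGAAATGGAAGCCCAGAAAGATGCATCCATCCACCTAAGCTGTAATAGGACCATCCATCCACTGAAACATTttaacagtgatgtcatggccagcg
Tgfbr2 without the exon: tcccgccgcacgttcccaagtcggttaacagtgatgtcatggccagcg
In Tgfbr1 the transcript NM_009370 begins its exon 3 with 12 additional bases, or 4 codons, at chr4:47393247-47393258 on the plus strand, which NM_001312868 lacks.
Tgfbr1 with the 12 bases: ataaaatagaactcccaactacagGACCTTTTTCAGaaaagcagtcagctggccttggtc
Tgfbr1 without the 12 bases: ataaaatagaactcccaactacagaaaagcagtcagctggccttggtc

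Total counts ranged from 12314368 to 24441522 in Control tumors and from 8468914 to 13696665 in SS tumors, so that 3 counts corresponded to between 0.123 and 0.354 CPM. CPM here is the count of a gene in a library scaled to 1000000 counts with TMM factors, and the p-values measure only the spread between these 6 tumors. Lfng lay between 5.17 and 6.40 CPM in Control and between 4.65 and 5.37 CPM in SS. The mesenchymal Vim lay between 5875 and 8620 CPM. Of the 10 epithelial markers, Epcam and Cdh1 were low, at most 2.98 and 8.59 CPM in any tumor, whereas Krt8 lay between 417.2 and 544.4 CPM. Krt18, a keratin of luminal epithelium, was at 91.8, 98.1 and 80.4 CPM in Control and at 70.0, 59.5 and 61.9 CPM in SS, lower in every SS tumor than in any Control tumor, with a difference of -0.50 (unadjusted p 0.0039, adjusted p 0.760). The 10 summed to 946.7, 679.3 and 527.2 CPM in Control tumors 1, 2 and 3 and to 716.1, 934.0 and 513.8 CPM in SS tumors 1, 2 and 3. Krt5, a keratin of basal epithelium, was at 73.1, 1.13 and 1.44 CPM in Control and at 33.9, 26.7 and 0 CPM in SS, so that Control tumor 1 and SS tumors 1 and 2 stood apart from the other 3. The summed estrogen receptor, progesterone receptor and Erbb2 RNA was between 23.4 and 30.5 CPM. Summed levels of the fibroblast list, 7 of whose 9 genes were tested, ranged from 12930 to 18910 CPM in Control and from 9152 to 18310 CPM in SS. Col1a1 alone, at 7057 to 14510 CPM over the tumors, made up most of this sum. Pdgfrb lay between 40.5 and 81.1 CPM and Fap between 12.4 and 35.5 CPM. Pdgfra and Dcn were at most 9.96 and 10.5 CPM, and Lum and Thy1 at most 1.74 and 0.885 CPM. Of the 7 tested, 1 was fitted higher and 6 lower in SS. The 8 macrophage markers summed to between 730.9 and 871.9 CPM in Control and between 767.4 and 950.5 CPM in SS, with 7 fitted higher and 1 lower. The lower one, Cd14, was at 15.3, 15.1 and 21.1 CPM in Control and at 10.1, 11.0 and 13.3 CPM in SS, groups that did not overlap, with a difference of -0.59 (unadjusted p 0.024, adjusted p 0.771). The endothelial list summed to between 82.8 and 125 CPM in Control and between 95.3 and 187 CPM in SS, with 5 of its 6 tested genes fitted higher and 1 lower. Adipocyte markers (7 of 8 in the table) divided the tumors in the same way as Krt5. Their sums were 48.9, 0.54 and 0.041 CPM in Control and 13.3, 20.99 and 0.85 CPM in SS. T cell markers (3 of 7) summed to 50.1, 14.0 and 8.5 CPM in Control and to 22.4, 13.5 and 4.82 CPM in SS, highest in Control tumor 1. Platelet markers (4 of 5) summed to at most 6.68 CPM and neutrophil markers (3 of 6) to at most 1.19 CPM in any tumor. The part of these cells in the values below was not tested.

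None of the 10 genes passed adjustment between Control and SS tumors. Smad4 was the one with the smallest p, lower in SS tumors by 0.36 on the log2 scale, and it was the only one of the 10 whose SS tumors all lay on one side of the Control tumors. By the quasi-likelihood test of edgeR, adjusted after Benjamini-Hochberg, 0 of 10 genes had an adjusted p under 0.05, beside 0 of all 10902 genes (0%), and the smallest adjusted p of any gene was 0.616. At an unadjusted p under 0.05 there was 1 of 10 (Smad4), where the share over all genes was 6.36%, with 3.16% lower and 3.19% higher in SS. DESeq2, run as an alternative, called 0 of the 8 genes to which it gave an adjusted p (it gave none for Tgfb2 and Tgfbr3), and called 36 of the 6672 genes to which it gave one (0.54%). Values of Control and SS did not overlap for 1 of 10, against 12.9% of all genes, of which 6.4% were lower in SS. The fitted difference was below 0 for 8 of 10 genes, where it was for 50.2% of all genes, and the median difference was -0.16 over the 10 and -0.0014 over all genes. With 1 tumor left out the median over the 10 ranged from -0.21 to -0.08, the latter without Control tumor 3. Tumors are mixtures, and less RNA per cell and fewer cells of a type cannot be told apart in any of these values.

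**Figure D1:**
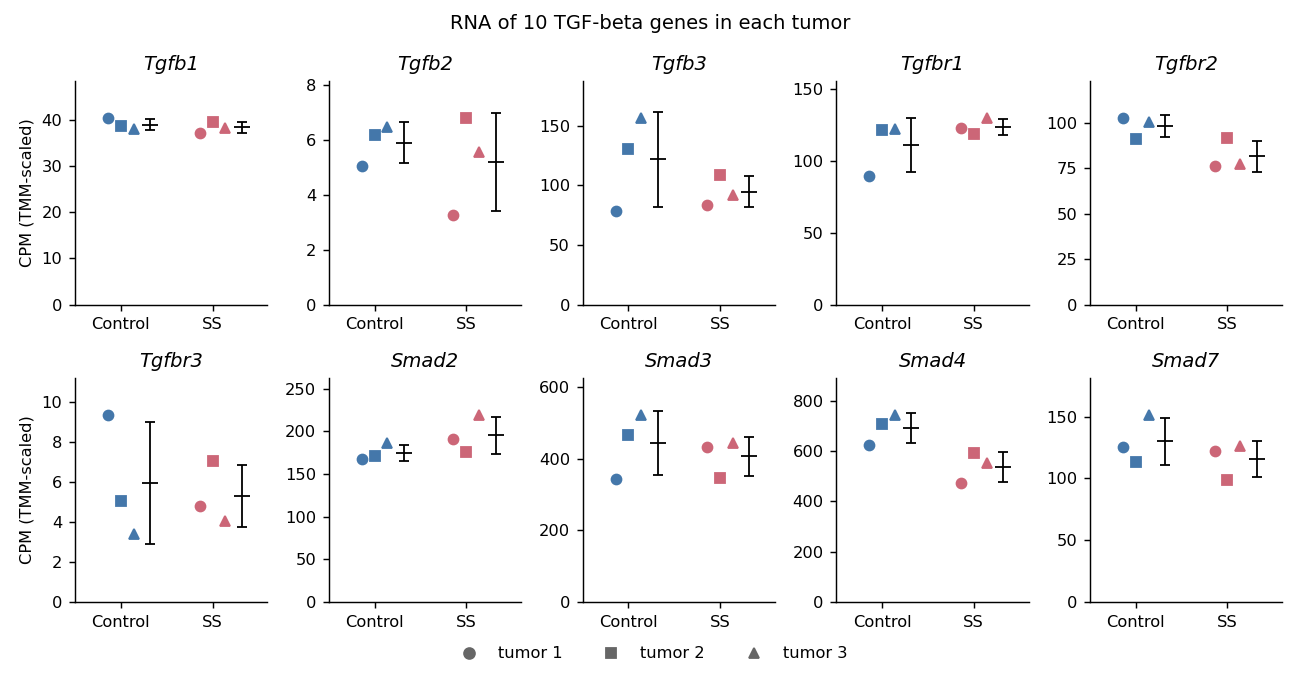
TMM-scaled CPM of the 10 genes, each on its own linear axis from 0, in the 3 Control (blue) and 3 SS (red) tumors, with 1 point per tumor, its shape giving the tumor number, and the group mean ± SD beside the points. The groups are apart only for Smad4, at 625.8 to 742.5 CPM in Control and 473.3 to 591.1 CPM in SS.

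Among the ligands, Tgfb1, the form most studied in immune cells and in scarring, had nearly the same level in every tumor. Tgfb1 (chr7:25687002-25705078) was at 40.3, 38.7 and 37.9 CPM in Control tumors 1, 2 and 3 and at 37.2, 39.6 and 38.3 CPM in SS tumors 1, 2 and 3. The 6 values overlapped and had the smallest spread of the 10 genes, a range of 0.12 on the log2 scale. The fitted difference, SS minus Control, was -0.02 (SE 0.11), with a 95% interval from -0.28 to 0.24 and an adjusted p of 0.973. Leaving out 1 tumor at a time moved the difference between -0.05 and 0.00015.

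Tgfb3, a ligand with roles in palate fusion and in mesenchymal tissue, was the most abundant ligand per length. Tgfb3 (chr12:86056743-86079042) was at 78.3, 130.7 and 156.1 CPM in Control and at 83.4, 108.6 and 92.2 CPM in SS. Control tumor 1 was below all SS tumors and Control tumors 2 and 3 were above them all. The means were 122 ± 39.7 (SD, n = 3) and 94.7 ± 12.8 CPM (SD, n = 3), and the difference of -0.36 (SE 0.24) had a 95% interval from -0.92 to 0.19 and an adjusted p of 0.855. This value rested on Control tumors 1 and 3, since it was -0.60 without the former (unadjusted p 0.0054, adjusted p 0.532) and -0.14 without the latter.

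Tgfb2, the ligand with the lowest affinity for Tgfbr2 in the absence of Tgfbr3, had 1 of the lowest levels of the 10 genes, together with Tgfbr3. Tgfb2 (chr1:186622792-186705990) was at 5.06, 6.19 and 6.48 CPM in Control and at 3.27, 6.80 and 5.58 CPM in SS. The highest and the lowest value were both from SS tumors. The difference of -0.19 (SE 0.33) had a 95% interval from -0.95 to 0.57, and without SS tumor 1 it was 0.06.

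Counted per transcript length, Tgfb3 RNA made up 54.3%, 67.1% and 71.2% of the ligand RNA in Control tumors and 58.2%, 62.2% and 59.3% in SS tumors. Tgfb1 accounted for 43.4%, 30.9% and 26.9% in Control and for 40.3%, 35.3% and 38.3% in SS. Tgfb2 stayed between 1.51% and 2.57% in all 6 tumors. The order Tgfb3, Tgfb1, Tgfb2 was the same in every tumor, and the shares of Control and SS overlapped for all 3 ligands.

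Of the receptors, Tgfbr2 had the smallest p. Tgfbr2 (chr9:116087695-116175364), the type II receptor that binds ligand first, was at 102.6, 91.3 and 100.7 CPM in Control and at 76.1, 91.6 and 77.7 CPM in SS. SS tumors 1 and 3 lay below all Control tumors, while SS tumor 2 was level with Control tumor 2. The means were 98.2 ± 6.06 and 81.8 ± 8.51 CPM (SD, n = 3 each), and the difference of -0.26 (SE 0.12) had a 95% interval from -0.53 to 0.0031, an unadjusted p of 0.0521 and an adjusted p of 0.771. With 1 tumor left out the difference ranged from -0.35 to -0.22, and 2 of these 6 fits had an unadjusted p under 0.05, without SS tumor 2 (p 0.0203) and without Control tumor 2 (p 0.0494), as had the fit with upper-quartile scaling (p 0.0455).

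Tgfbr1, the type I receptor kinase that phosphorylates Smad2 and Smad3, was 1 of the 2 genes among the 10 with a fitted difference above 0. Tgfbr1 (chr4:47353222-47414925) was at 89.2, 121.6 and 122.3 CPM in Control and at 122.7, 118.9 and 129.6 CPM in SS. Control tumor 1 was low and the other 5 tumors lay close together. The difference was 0.16 (SE 0.14), with a 95% interval from -0.17 to 0.48 and an adjusted p of 0.891, and it was 0.02 without Control tumor 1.

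Tgfbr3, or betaglycan, is a coreceptor that presents ligand, above all Tgfb2, to Tgfbr2. Tgfbr3 (chr5:107106567-107289630) was at 9.33, 5.06 and 3.41 CPM in Control and at 4.79, 7.04 and 4.06 CPM in SS. Control tumors 1 and 3 gave the highest and the lowest of the 6 values. Its log2 range over the tumors, 1.42, was the widest of the 10 genes, and its difference of -0.16 (SE 0.42, 95% interval from -1.14 to 0.82) was 0.31 without Control tumor 1.

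**Figure D2:**
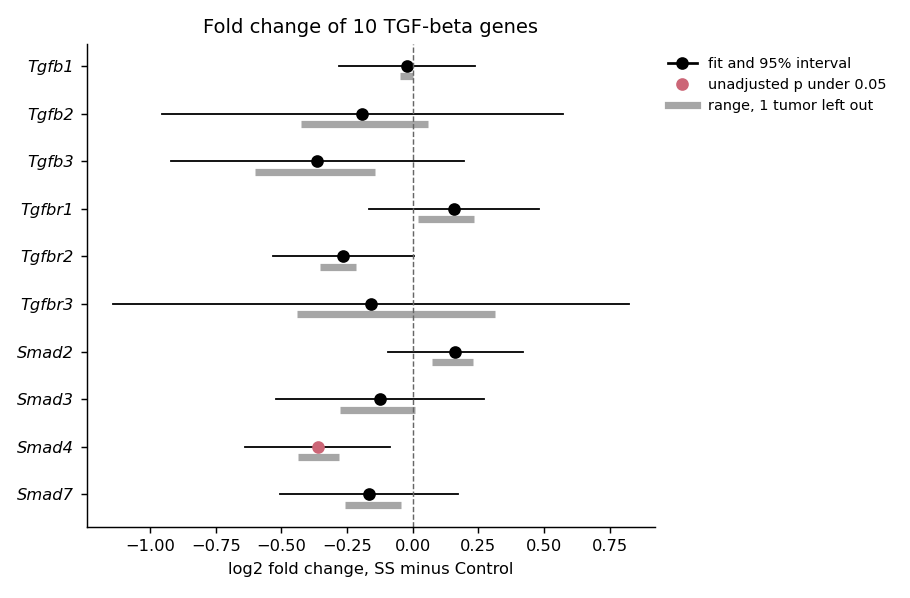
Fitted log2 difference, SS minus Control, of each of the 10 genes with its 95% interval (edgeR, 3 tumors per group) and, as a gray bar, the range of the differences with 1 tumor left out. The red point marks an unadjusted p under 0.05. The interval of Smad4, from -0.64 to -0.09, is the only one that does not reach 0, and that of Tgfbr2 ends at 0.0031.

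The Tgfbr2 forms whose sequences are given above shared the counts of the gene as follows. The longer form, with the 75-base exon, held 28.4%, 34.5% and 24.6% of the estimated Tgfbr2 counts in Control tumors and 38.8%, 37.5% and 49.9% in SS tumors. All SS tumors were above all Control tumors. Per transcript length its share was 14.6%, 18.5% and 12.3% in Control and 21.4%, 20.5% and 29.98% in SS. With 2 forms of fixed length, the order of the tumors by this share is set by the count shares and adds no further evidence. The means by counts were 29.2% ± 5.0 and 42.1% ± 6.83 (SD, n = 3 each). Over the 2792 genes with at least 2 tested transcripts, the share of the leading transcript did not overlap between Control and SS in 11.3%. This share was looked at after the gene values had been seen, so it is a description with no test.

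In the fit over 15132 transcripts, the shorter Tgfbr2 form was at 74.0, 59.9 and 75.8 CPM in Control and at 46.7, 57.1 and 38.8 CPM in SS. Its SS values were all below its Control values, by a narrow margin between Control tumor 2 and SS tumor 2. The difference of -0.56 (SE 0.18) had an unadjusted p of 0.0187 and an adjusted p of 0.855, where 5.58% of all transcripts had an unadjusted p under 0.05 and 0% an adjusted one. With 1 tumor left out it ranged from -0.71 to -0.43, and the unadjusted p stayed under 0.05 in only 2 of 6 fits, those without Control tumor 2 or SS tumor 2. The longer form was at 29.4, 31.6 and 24.8 CPM in Control and at 29.6, 34.3 and 38.7 CPM in SS, values that overlapped, with a difference of 0.26 (SE 0.17, adjusted p 0.935). The deposited table gives both forms the same start and end, while the linked GENCODE models are 8092 bases long for the longer form and 3476 bases for the shorter one. Which reads divided the counts between them was not tested.

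**Figure D3:**
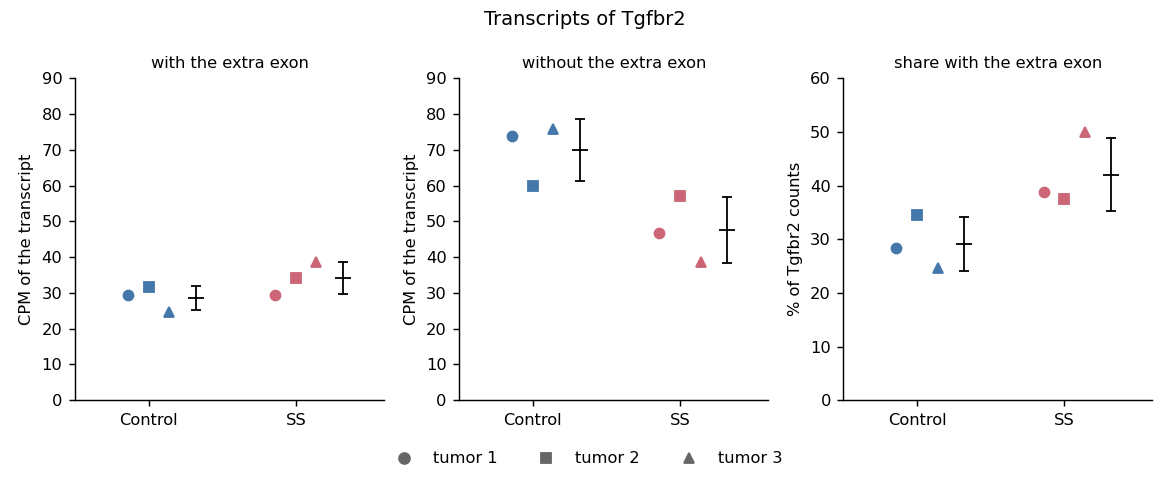
Estimated CPM of the Tgfbr2 transcripts with and without the 75-base exon in each tumor, and the share of Tgfbr2 counts held by the form with it (percent), with 1 point per tumor and the group mean ± SD beside the points. The share of the longer form lies between 24.6% and 34.5% in Control and between 37.5% and 49.9% in SS.

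No such separation was seen for Tgfbr1. The form with 12 additional bases held 41.4%, 57.1% and 54.2% of Tgfbr1 counts in Control and 48.8%, 31.3% and 59.6% in SS, so that both the lowest and the highest share came from SS tumors. The remaining transcript, NM_001312869, held at most 0.25% and was not tested. For Smad2, the main transcript NM_010754 held between 81.2% and 89.2% of the counts in every tumor, and NM_001311070, which lacks an exon of 90 bases or 30 codons, held at most 3.05%. Per transcript length these shares were between 56.1% and 70.3% for NM_010754 and at most 10.7% for NM_001311070. The counts of Tgfb2 were divided between its transcripts without a stable pattern, with NM_001329107 at 25.7%, 0.000001% and 54.8% in Control and at 12.2%, 100% and 51.6% in SS, and for that gene only the sum is used.

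The SMADs held both the highest levels and the smallest p among the 10 genes. Smad4 (chr18:73639013-73703742), the partner shared by the TGF-β and BMP arms and a tumor suppressor, was at 625.8, 710.0 and 742.5 CPM in Control and at 473.3, 591.1 and 552.0 CPM in SS. All 3 SS tumors were below all 3 Control tumors, with SS tumor 2 closest to Control tumor 1. The means were 693 ± 60.2 and 539 ± 60.0 CPM (SD, n = 3 each). The difference of -0.36 (SE 0.12) had a 95% interval from -0.64 to -0.09 and an unadjusted p of 0.0161, with an adjusted p of 0.771, and it stood at place 206 of the 10902 genes by p. DESeq2 gave an unadjusted p of 0.0045 and an adjusted p of 0.249. The difference was below 0 in all 6 fits with 1 tumor left out, from -0.44 to -0.28, and the unadjusted p was above 0.05 in 1 of them, without SS tumor 1 (0.0546).

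Smad2 and Smad3, the receptor-activated SMADs, had fitted differences of opposite sign that were both within the spread between tumors. Smad2 (chr18:76241701-76311748) was at 167.3, 170.6 and 185.8 CPM in Control and at 191.2, 176.1 and 218.5 CPM in SS. SS tumors 1 and 3 were above all Control tumors, and SS tumor 2 was below Control tumor 3. The difference was 0.16 (SE 0.11), with a 95% interval from -0.09 to 0.42 and an adjusted p of 0.860, and it was 0.07 without SS tumor 3. Smad3 (chr9:63646767-63757995) was at 344.2, 464.6 and 520.1 CPM in Control and at 430.8, 344.3 and 443.1 CPM in SS. Control tumor 1 and SS tumor 2 shared the lowest level, about 344 CPM, and Control tumor 3 was the highest. The difference was -0.13 (SE 0.17), with a 95% interval from -0.52 to 0.27, and it was 0.0072 without Control tumor 3.

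Smad7, a direct target of Smad3 and Smad4 that brings ubiquitin ligases to the receptors, was lower in mean but not apart. Smad7 (chr18:75367365-75395935) was at 125.7, 113.4 and 150.9 CPM in Control and at 122.4, 98.7 and 126.0 CPM in SS. Control tumor 2 lay below SS tumors 1 and 3, so the groups overlapped. The difference was -0.17 (SE 0.15), with a 95% interval from -0.51 to 0.17 and an adjusted p of 0.891. It was -0.04 without Control tumor 3, -0.07 without SS tumor 2 and -0.26 without Control tumor 2.

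Levels of the 10 genes were compared with one another only per transcript length, as TPM-like values. These are counts divided by length and scaled to a common total per tumor. Smad4 was the highest of the 10, at 413 ± 50.7 in Control and 313 ± 59.4 in SS (SD, n = 3 each), and stood at place 297 of the 13545 genes with a length. Smad3 followed at 176 ± 41.8 and 155 ± 11.7. The order Smad4 over Smad3 over Tgfb3 held in all 6 tumors. By the transcripts' own lengths, Tgfb3, Smad7, Smad2 and Tgfbr1 then lay close together. Their means were between 57.9 and 72.9 in Control and between 52.5 and 64.7 in SS. No neighbors in this run kept their order in more than 4 of 6 tumors. Tgfbr1 was above Tgfbr2 in 5 of 6 tumors, with Tgfbr2 at 47.5 ± 6.06 in Control and 35.2 ± 7.68 in SS, and Tgfbr2 was above Tgfb1 in 4 of 6. Tgfb1 was at 36.0 ± 1.33 and 34.5 ± 3.96 and exceeded Tgfb2 in 6 of 6. Tgfb2, at 2.33 ± 0.371 and 2.03 ± 0.839, and Tgfbr3, at 1.94 ± 0.960 and 1.72 ± 0.644, kept their order in 4 of 6 tumors. The levels of Tgfbr2, Tgfbr1 and Smad2 depended on the lengths taken for their transcripts, which for the shorter Tgfbr2 form was 3476 bases. Where the longest transcript of each gene was used instead, Tgfbr2 had 25.4 in Control and 20.6 in SS, below Tgfb1. Tgfbr1 then had 40.4 in Control and 43.5 in SS, and Smad2 had 45.2 and 48.8. Tgfb3, at 75.8 and 57.2, and Smad7, at 63.9 and 54.5, stayed near their values above. Smad7 was then above Smad2 in every tumor.

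**Figure D4:**
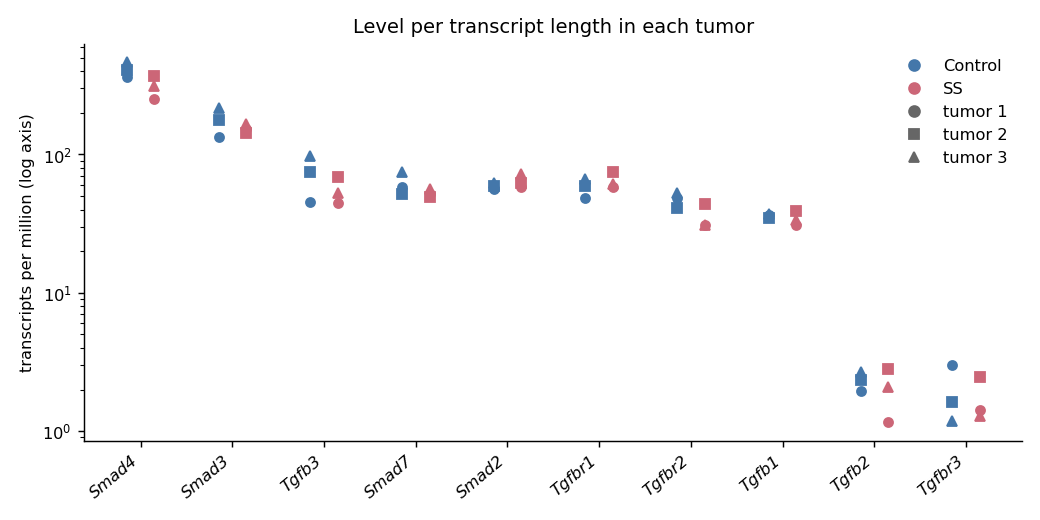
Level per transcript length (TPM-like, log axis) of the 10 genes in each tumor, ordered by the Control mean, with 1 point per tumor (Control blue, SS red). Smad4 and Smad3 stand highest, and Tgfb2 and Tgfbr3 lowest at about 2.

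Genes that store or free the ligand included none with an unadjusted p under 0.05, where 6.36% of all genes had one. Of 16 listed, 13 were tested, with 4 fitted higher and 9 lower in SS and a median difference of -0.08. Over all genes 50.2% were fitted lower. The smallest p belonged to Thbs1, thrombospondin 1, which releases latent TGF-β, at 703, 859.1 and 1651 CPM in Control and at 576.8, 828.1 and 729.7 CPM in SS. Control tumor 3 stood far above the other 5 tumors, and the difference was -0.59 (SE 0.31, adjusted p 0.792). Lrrc32, which tethers latent TGF-β to the surface of regulatory T cells and platelets, was at 5.45, 11.3 and 10.2 CPM in Control and at 3.48, 7.39 and 5.75 CPM in SS. Control tumor 1 was below 2 of the SS tumors, and the difference was -0.71 (SE 0.38, adjusted p 0.796).

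Of the 23 other ligands of the superfamily, 10 were tested, with 5 higher and 5 lower, a median of 0.10 and 1 with an unadjusted p under 0.05 (6.36% over all genes). The sign of this median was not stable, at -0.10 with the replicate block and -0.20 when SS tumor 2 was left out. The gene with an unadjusted p under 0.05 was Bmp2, a ligand of the BMP arm, at 4.03, 3.69 and 4.15 CPM in Control and at 1.52, 2.03 and 2.79 CPM in SS. These rest on 51, 75 and 101 counts in Control and on 21, 17 and 33 in SS. Every SS tumor was below every Control tumor, and the difference of -0.90 (SE 0.37) had an unadjusted p of 0.0407 and an adjusted p of 0.771. DESeq2 gave Bmp2 an unadjusted p of 0.0597 and no adjusted p. Of 8 other receptors tested, 2 were higher and 6 lower, with a median of -0.07 and 0 with an unadjusted p under 0.05. The coreceptor Eng, also a gene of endothelial cells, was at 33.1, 33.1 and 29.3 CPM in Control and at 38.1, 55.4 and 26.3 CPM in SS, with the highest and lowest values both in SS tumors and a difference of 0.32 (SE 0.25, adjusted p 0.875). The summed endothelial markers, Eng included, were highest in the same SS tumor 2, at 187 CPM, and their part in the value of Eng was not tested. Acvr1, a type I receptor of BMPs and activins, had a difference of -0.15 (SE 0.21, adjusted p 0.925).

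All 3 tested SMADs of other arms were fitted lower, with a median of -0.15 and 0 with an unadjusted p under 0.05. Smad1, which carries BMP signals, was at 32.3, 36.4 and 43.2 CPM in Control and at 24.6, 34.5 and 30.8 CPM in SS, and SS tumor 2 was above Control tumor 1. The difference was -0.32 (SE 0.18, adjusted p 0.803) for Smad1 and -0.09 (SE 0.14, adjusted p 0.932) for Smad5, another SMAD of the BMP arm. Among 22 regulators of SMADs, 7 were higher and 15 lower, the median was -0.05 (0.03 without Control tumor 3) and 1 had an unadjusted p under 0.05, a share below the 6.36% over all genes. This was Tgif1, a corepressor that binds Smad2, at 60.9, 56.1 and 65.3 CPM in Control and at 38.4, 53.2 and 49.3 CPM in SS. All SS tumors were below all Control tumors, and the difference of -0.37 (SE 0.15) had an unadjusted p of 0.0356 and an adjusted p of 0.771.

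Among 32 genes listed as targets of TGF-β, 29 were tested, with 8 higher and 21 lower in SS, a median of -0.18 and 5 with an unadjusted p under 0.05, 2 higher and 3 lower. Over all genes, 50.2% were fitted lower and 6.36% had an unadjusted p under 0.05. The median of the list was -0.29 when SS tumor 2 was left out and -0.10 when SS tumor 1 was. None passed adjustment in edgeR or in DESeq2. Control and SS did not overlap for 7 of the 29, with 4 lower and 3 higher, where 12.9% of all genes did not overlap and 6.4% were apart and lower. Bhlhe40, a transcription repressor that also responds to hypoxia, was at 258.1, 215.5 and 298.5 CPM in Control and at 193.8, 177.3 and 170.3 CPM in SS. All SS tumors were below all Control tumors, and the difference of -0.51 (SE 0.13) had an unadjusted p of 0.0053, with an adjusted p of 0.760 in edgeR and of 0.0781 in DESeq2. Hmga2, an architectural chromatin protein linked to mesenchymal traits, was at 73.2, 72.4 and 76.7 CPM in Control and at 88.5, 99.8 and 120.6 CPM in SS. All SS tumors were above all Control tumors, and the difference was 0.47 (SE 0.13, unadjusted p 0.0075, adjusted p 0.771).

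Junb, a subunit of the AP-1 transcription factor, was at 159.4, 140.6 and 194.8 CPM in Control and at 121.3, 115.7 and 125.1 CPM in SS, and the difference was -0.45 (SE 0.13, unadjusted p 0.0101). Cyr61, a matrix protein that is also a target of YAP, was at 850.9, 520.5 and 656.9 CPM in Control and at 382.8, 486.6 and 465.5 CPM in SS, and the difference was -0.60 (SE 0.19, unadjusted p 0.0121). Both genes were lower in every SS tumor than in any Control tumor, each with an adjusted p of 0.771. Tgfbi, a secreted matrix protein, was at 310.7, 354.0 and 327.1 CPM in Control and at 420.3, 385.7 and 385.3 CPM in SS, higher in every SS tumor by 0.26 (SE 0.095, unadjusted p 0.0243, adjusted p 0.771). Genes of this list thus had unadjusted p under 0.05 in both directions.

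Tgfbi, as well as Ctgf, Pmepa1 and Skil, often used as readouts of SMAD activity, were picked for description after their values had been seen. Ctgf was at 83.4, 78.5 and 129.9 CPM in Control and at 112.6, 161.6 and 119.8 CPM in SS, with a difference of 0.43 (SE 0.22, adjusted p 0.792). These values overlapped between Control and SS. Pmepa1 had a difference of -0.43 (SE 0.22, adjusted p 0.792), and Skil had one of -0.25 (SE 0.23, adjusted p 0.897).

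Extracellular antagonists and decoys, 12 of 15 listed being tested, were fitted higher in 4 cases and lower in 8, with a median of -0.19. Of these, 0 had an unadjusted p under 0.05. Over all genes 6.36% had one, and 50.2% were fitted lower. Bgn, a matrix proteoglycan that binds TGF-β, was at 355.7, 439.6 and 550.0 CPM in Control and at 271.7, 428.8 and 350.9 CPM in SS, with a difference of -0.36 (SE 0.21, adjusted p 0.818). SS tumor 2 was above Control tumor 1, so the groups overlapped. Bambi, a decoy receptor without a kinase, was at 0.79, 2.85 and 2.05 CPM in Control and at 2.83, 3.58 and 3.30 CPM in SS, with a difference of 0.75 (SE 0.51, adjusted p 0.858). The lists overlap, since Skil and Pmepa1 stand among both regulators and targets and Bambi among both regulators and antagonists. The cell marker lists also share genes with them. Of the fibroblast markers, Col1a1, Col1a2 and Col3a1 stand among the targets and Dcn among the antagonists, and the endothelial Eng stands among the other receptors.

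**Figure D5:**
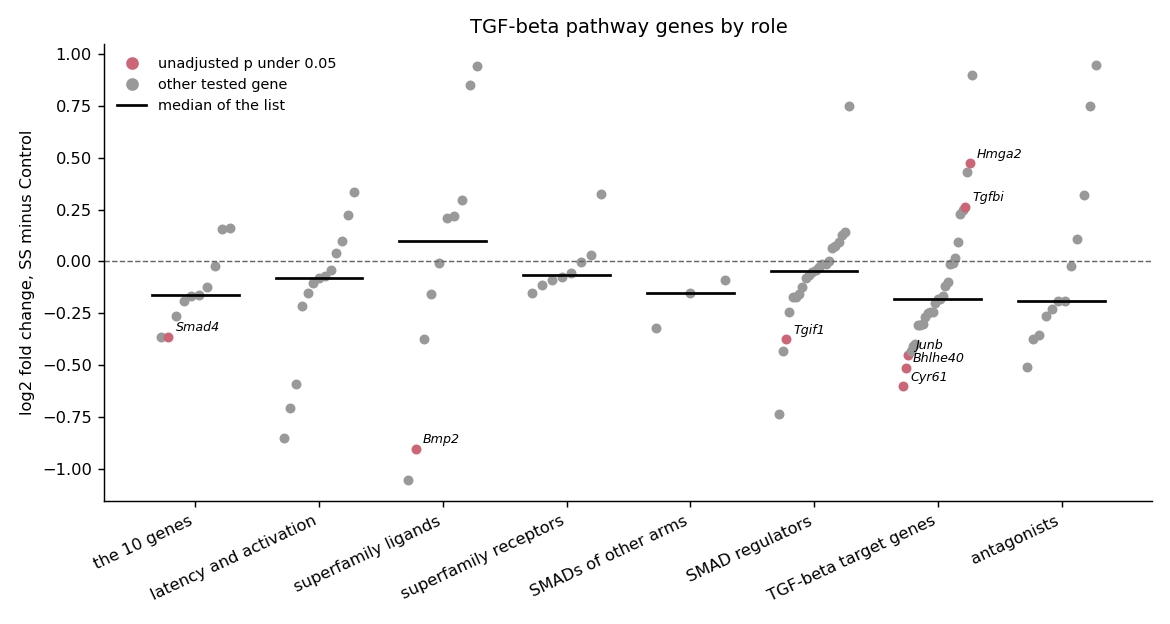
Fitted log2 difference, SS minus Control, of every tested gene of the 10 and of each pathway list, with 1 point per gene, red points for an unadjusted p under 0.05 and a bar at the list's median. The medians run from -0.19 for antagonists to 0.10 for other ligands, beside -0.0014 over all genes.

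For 1 gene of each role, the genes with the most similar profile over the 6 tumors were found by the root mean square difference of centered log2 CPM. Tgfb1 was matched most closely by Vps16 (0.016), Lrrc58 (0.018) and Mknk2 (0.030). Its own values spread by only 0.039 around their mean, and 575 genes lay within 0.1 of it. Tgfbr2 was closest to Eif3f (0.038), H6pd (0.044) and Chtop (0.045), with 126 genes within 0.1. Smad3 was closest to Iars (0.034), Lman1 (0.036) and Tpra1 (0.060), with 50 genes within 0.1.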

How the data were processed

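Stranded, polyadenylated RNA of 6 tumors was sequenced from both ends (75 nucleotides each). The deposited values are estimated counts for each RefSeq transcript, unnormalized and with low entries removed, so that each of the 20648 transcripts has at least 10 counts over the tumors. The submitters' processing notes name mm10, CASAVA 1.8.1, STAR 2.5.3a and Bowtie2 2.2.5 without their roles, and the counting tool is not given in the sources used here. Estimated counts divide reads shared by transcripts of a gene, so sums per gene are surer than single transcripts.

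Counts were summed per symbol (21 symbols held as dates were restored), rounded, filtered with filterByExpr and compared with edgeR 4.0.16 in R 4.3.3 (TMM scaling, quasi-likelihood test, Benjamini-Hochberg adjustment over all 10902 genes). Adjusted and unadjusted p-values are from this test unless another tool is named. SE is the log2 difference divided by the root of F, and intervals are at 95%. Coordinates are those of the table. Lengths are from GENCODE M21, which matched 94.3% of transcripts, and an unmatched transcript took the longest matched length of its gene, so that transcripts with a length held 98.1% of counts. Alternatives were DESeq2 1.42.0, limma-voom with sample weights (limma 3.58.1), quantile normalization with a t statistic as in the study's methods, RLE and upper-quartile scaling, other filters, a replicate block and leaving out each tumor. Thinning to the smallest library, isoform shares and the isoform fits under other settings were added after the data had been seen. The test was tried on simulated data.

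The 10 genes and the pathway lists were chosen with earlier results of these data known. From each list, genes with an unadjusted p under 0.05 are named (at most 4, smallest p first), or else the 2 with the smallest p, except where a later choice is stated. Similar profiles are given for 1 gene of each role.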

Additional observations from a re-analysis of the deposited data

How the results depend on the processing

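The count of the 10 genes with an adjusted p under 0.05 was 0 under every alternative run, while over all genes DESeq2 called 36 against 0 in edgeR. For Smad4 the difference stayed below 0 under all alternatives, with an unadjusted p under 0.05 in all 9 that kept every tumor (adjusted p from 0.249 to 0.828). The number of the 10 genes with an unadjusted p under 0.05 was 2 with upper-quartile scaling and from 0 to 2 with 1 tumor left out, 0 without SS replicate 1, where the share over all genes was 6.55% and from 4.58% to 7.81%. The number whose groups did not overlap was 2 without a filter on low counts, after thinning to the smallest library and with upper-quartile scaling (11.9%, 12.6% and 13.1% of all genes), and from 2 to 4 with 1 tumor left out, 4 without Control replicate 1 and 3 without SS replicate 2, where between 21.1% and 25.4% of all genes did not overlap in such fits. Differences near 0 changed sign. With 1 tumor left out, that of Smad3 ran from -0.28 to 0.0072 (highest without Control replicate 3), that of Tgfb1 from -0.048 to 0.00015 (without Control replicate 1; 0.018 after thinning), that of Tgfb2 from -0.43 to 0.058 (without SS replicate 1) and that of Tgfbr3 from -0.44 to 0.31 (without Control replicate 1). The cause was not tested. The median of the other ligands, 0.10, was -0.10 with the replicate block, -0.12 without a filter, -0.15 with the stricter one, -0.05 in limma-voom, -0.0029 after thinning, and from -0.20 to 0.17 with 1 tumor left out. Without Control replicate 3 the medians of the other receptors and of SMAD regulators were 0.04 and 0.03. With 1 tumor left out that of antagonists ran from -0.33 to -0.02 (without SS replicate 1), that of SMADs of other arms from -0.37 to -0.0038 and that of latency genes from -0.20 to -0.05. Tumors that share a replicate number came from separate mice, and their deviations correlated by 0.116, 0.021 and 0.077, so the numbers were not read as pairs. With the replicate block Smad4 had a difference of -0.37 (adjusted p 0.815), 643 genes had an unadjusted p under 0.05 against 693, and no gene passed adjustment. Tgfb2, Tgfbr3, Bambi and Bmp2, at under 10 CPM, have wide intervals, that of Bmp2 from -1.76 to -0.05.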
